A study of Mus musculus with 71 samples.

Results

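The 7 genes described here are the transcriptional activators of the circadian clock, Bmal1, Clock and Npas2, and the nuclear receptors of the loop that acts on Bmal1, namely Nr1d1 and Nr1d2 (the Rev-erb receptors) with Rora and Rorb (the Ror receptors). They were chosen by name, as the activator arm and the Rev-erb/Ror arm of the clock, from the 57010 genes of the count table, and 7 of 7 were among the 30141 genes that were tested. mRNA was captured from mouse hippocampus by pS6-TRAP, in which ribosomes that carry phosphorylated ribosomal protein S6, a mark of recently active cells, are pulled down together with the mRNA they hold. All 71 mice were wild type (WT) males of the C57Bl/6J strain that received either normal chow (NC) or a diet rich in fat and sugar (HFS) from weaning on, and each library is 1 mouse.

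On NC ad lib or HFS ad lib, food was there at all hours, whereas HFS TRF mice had the HFS diet under time-restricted feeding, with food limited mostly to the dark phase, during the last weeks. Each feeding group was sampled in 4 conditions. Home cage mice were taken at zeitgeber time 3 (HC zt3, 3 h after lights on) or 15 (HC zt15, 3 h after lights off), and trained mice were taken 1 h (ORM+1 h) or 12 h (ORM+12 h) after the training session of an object recognition memory (ORM) task. ORM+1 h mice were taken at zt3 and ORM+12 h mice at zt15. The 12 groups held 6 mice each, except HFS TRF HC zt15 with 5. All zt3 mice belonged to 1 experiment and all zt15 mice to the other, and whether a difference across times came with the hour or with the experiment cannot be told apart. The cage of each mouse is not given in the labels, and p-values therefore take the mice as independent.

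BMAL1 pairs with CLOCK or with its close relative NPAS2, and the pair binds E-boxes in DNA to switch on clock-controlled genes, among them those of the period, cryptochrome, REV-ERB and ROR proteins. REV-ERBα and REV-ERBβ, the products of Nr1d1 and Nr1d2, then repress Bmal1 through ROR elements, whereas the ROR proteins activate it through the same elements. In the forebrain, NPAS2 can stand in for CLOCK, and the loop is known to keep Bmal1 and the Rev-erb genes in opposite phases of the day.

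The members of the loop are linked by the short DNA motifs they bind, so the promoters were read for the E-box CACGTG, its variant CACGTT and the ROR elements TAGGTCA and TGGGTCA, on both strands. RefSeq promoter windows of 300 bases (250 before and 50 from the transcript start, build GRCm38.p6, not the GRCm39 build of the counts) were found for 7 of the 7 genes, 11 windows in all because some genes have several starts, and 3 windows held a motif. The stretches shown are those of Bmal1, an activator, and Nr1d1, a repressor of it, with the motif in capitals. The Bmal1 stretch is chr7:113207530-113207559 on the plus strand and its TAGGTCA lies 31 to 37 bases from the start. The Nr1d1 stretch is chr11:98775378-98775627 on the minus strand, and its AACGTG, which is CACGTT read on the other strand, lies at -28 to -23.
Bmal1: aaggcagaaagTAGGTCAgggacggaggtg
Nr1d1: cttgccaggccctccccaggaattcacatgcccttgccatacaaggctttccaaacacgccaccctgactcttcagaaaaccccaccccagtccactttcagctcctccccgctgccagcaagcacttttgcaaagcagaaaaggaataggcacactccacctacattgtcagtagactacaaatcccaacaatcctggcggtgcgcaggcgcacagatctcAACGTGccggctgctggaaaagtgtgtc
The third match was a CACGTT on the minus strand of 1 of the windows of Rorb, at -234 to -229. Of all 32851 windows in the table, 7.15% held CACGTG, 4.68% CACGTT, 2.61% TAGGTCA and 3.98% TGGGTCA, and 11.4% held either E-box and 6.45% either ROR element. A match says only that the letters are there.

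The libraries held 34698914 to 62758570 counts, and every member was well covered, from 222 counts in the lowest mouse (Rorb) to 11663 in the highest (Nr1d1). Genes detected numbered 23092 to 24402 in the zt3 libraries and 21222 to 22559 in the zt15 libraries, so the 2 experiments did not overlap in this measure. Levels are given as counts per 1000000 counts of the scaled library total (CPM). Neuronal markers were high in all mice (Snap25 3049 to 5228 CPM), and the 7 genes of the hippocampal fields, among them Prox1 of the dentate gyrus at 44.9 to 136.4 CPM, were detected in all. Markers of neighbouring tissue were also present, and varied widely: the summed level of 5 choroid plexus genes ran from 88.3 to 18084 CPM and that of 7 thalamic genes from 74.6 to 496.1 CPM. In such bulk samples, fewer cells of a type and less RNA per cell cannot be told apart, nor can an mRNA level and the share of its cells that entered the captured pool.

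Among themselves the members were compared only per kilobase of exon. Nr1d1 (ENSMUSG00000020889, chromosome 11, 98658752 to 98666188, minus strand, GRCm39) stood highest, with a mean of 43.8 CPM per kb over the 71 mice. Of its exon bases 52.3% also lie in exons of Thra on the opposite strand. This level may be affected by Thra reads, in a direction that is not known, if strand was not used in counting, which is not given. Nr1d2 (ENSMUSG00000021775, chromosome 14, 4230545 to 4266624, plus strand) followed at 7.03 CPM per kb. The 3 activators lay close together, with Npas2 (ENSMUSG00000026077, chromosome 1, 39232705 to 39402323, plus strand) at 4.04, Clock (ENSMUSG00000029238, chromosome 5, 76342860 to 76452846, minus strand) at 3.53 and Bmal1 (ENSMUSG00000055116, chromosome 7, 112806152 to 112914735, plus strand) at 2.92 CPM per kb. Their order turned around when the longest transcript was used as the length, where Bmal1 had 7.24, Clock 6.14 and Npas2 5.02 CPM per kb, so no order among the activators can be read. Rora (ENSMUSG00000032238, chromosome 9, 68561068 to 69295528, plus strand) and Rorb (ENSMUSG00000036192, chromosome 19, 18907969 to 19088585, minus strand) were lowest on both lengths, at 1.59 and 1.22 CPM per kb of exon.

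The spread over mice differed between members. Clock varied least, from 48.4 to 80.9 CPM over the 71 mice, a 1.67-fold range. Bmal1, Npas2, Nr1d1 and Nr1d2 ranged 2.07- to 2.71-fold. Rora ranged 3.90-fold (14.3 to 55.9 CPM) and Rorb 5.59-fold (4.50 to 25.1 CPM). Ordered by their means, neighbouring groups lay within the larger of their SDs for each gene, except 1 of the 11 neighbour pairs of Npas2.

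**Figure D1:**
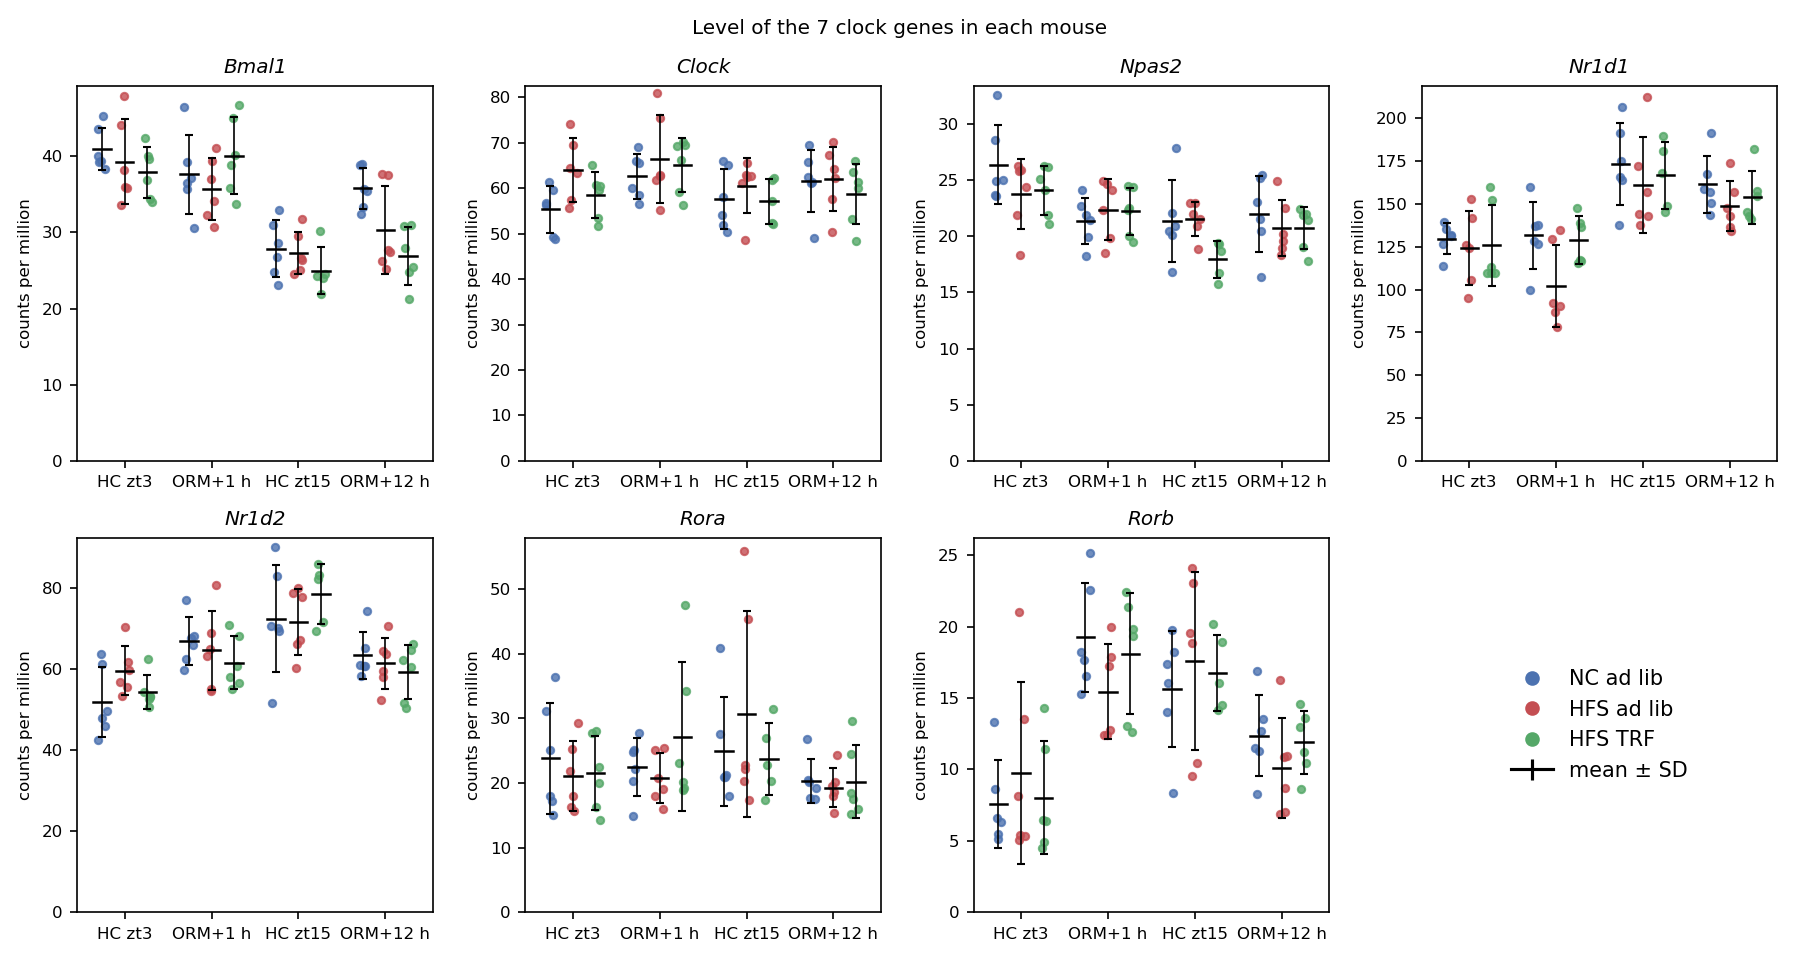
Level of each of the 7 genes (vertical axis, CPM, from 0) in each of the 71 mice, by condition (horizontal axis) and coloured by feeding group, with the mean and SD of each feeding group in black. Bmal1 sat at 33.6 to 47.9 CPM in the HC zt3 mice and at 21.9 to 33.0 CPM in the HC zt15 mice, and Rorb was low at HC zt3 (median 6.5 CPM) compared with the other conditions (medians 11.3 to 17.8 CPM).

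Setting HC zt15 against HC zt3 asks how the loop differed between night and day in undisturbed mice. Hour and experiment cannot be told apart in it, and night and day stand here for the zt15 and zt3 sets of mice. Bmal1 and Npas2 were lower at night, Nr1d1, Nr1d2 and Rorb were higher, and Clock and Rora did not pass the test. As the mean of the 3 feeding groups, Bmal1 was 1.48-fold lower and Npas2 1.22-fold lower, whereas Nr1d1 was 1.32-fold, Nr1d2 1.34-fold and Rorb 1.98-fold higher. Thus 5 of 7 members were called, at a Benjamini-Hochberg adjusted p under 0.05 in the quasi-likelihood test of edgeR, where 29.7% of all tested genes were called.

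Bmal1, the common partner of both activator pairs, lay at 33.6 to 47.9 CPM (median 39.3) in the 18 HC zt3 mice and at 21.9 to 33.0 CPM (median 26.4) in the 17 HC zt15 mice. All night mice were below all day mice. This was seen in 1.83% of all tested genes, and 1.99% of genes did not overlap in either direction. Its log2 fold change was -0.56 (SE 0.06, adjusted p = 3.5e-12). The difference had a like size in each feeding group, at -0.56 on NC ad lib (adjusted p = 3.0e-05), -0.52 on HFS ad lib (adjusted p = 9.5e-05) and -0.60 on HFS TRF (adjusted p = 1.9e-05). In each of them the 2 sets of mice stood apart, as in HFS TRF, where the 5 night mice had 24.5, 30.2, 21.9, 24.2 and 24.0 CPM and the 6 day mice 34.0 to 42.3 CPM.

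Npas2, the alternative partner of BMAL1, lay at 18.3 to 32.5 CPM (median 25.0) in HC zt3 mice and at 15.7 to 27.9 CPM (median 20.5) in HC zt15 mice, with 3 of 17 night mice below every day mouse. On the log2 scale the change was -0.29 (SE 0.06, adjusted p = 4.4e-05). On NC ad lib it was -0.30 (adjusted p = 0.030) and on HFS TRF -0.43 (adjusted p = 0.0021), and both passed, whereas on HFS ad lib it was -0.14 (adjusted p = 0.39). The NC ad lib call was lost without any of 6 of its 12 mice left out singly (adjusted p up to 0.13) and in a fit of the compared groups alone (adjusted p = 0.094). The HFS TRF night mice had 19.4, 19.3, 18.7, 16.7 and 15.7 CPM, all below the 6 day mice at 21.1 to 26.2 CPM. The HFS ad lib night mice, at 18.9 to 23.0 CPM, overlapped the day mice, at 18.3 to 26.3 CPM. This contrast between feeding groups did not pass when it was tested itself, with a difference of 0.16 for HFS ad lib against NC ad lib (95% interval -0.11 to 0.44, adjusted p = 0.77) and of -0.28 for HFS TRF against HFS ad lib (-0.56 to 0.00, unadjusted p = 0.051, adjusted p = 0.59).

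Clock, the other partner, lay at 48.7 to 74.0 CPM (median 59.6) by day and at 48.5 to 65.9 CPM (median 61.2) by night. The ranges overlapped almost wholly. Its log2 fold change of -0.02 (SE 0.05, adjusted p = 0.92) had a 95% interval of -0.12 to 0.08, so a change of the size seen in Bmal1 lay outside it. Exons of Tmem165 overlap 11.9% of the exon bases of Clock, and a long noncoding RNA, Gm53549, 12.7% of those of Npas2.

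Nr1d1, which encodes the repressor REV-ERBα, lay at 95.2 to 159.9 CPM (median 126.1) in HC zt3 mice and at 137.7 to 212.1 CPM (median 165.8) in HC zt15 mice. Of the 17 night mice, 10 were above every day mouse. The log2 fold change was 0.40 (SE 0.07, adjusted p = 1.9e-06), and by feeding group 0.42 (adjusted p = 0.0082) on NC ad lib, 0.37 (adjusted p = 0.024) on HFS ad lib and 0.41 (adjusted p = 0.013) on HFS TRF. Of the Nr1d1 exon bases 52.3% (1694) also lie in exons of Thra, the thyroid hormone receptor α gene on the opposite strand, and reads of the 2 genes can be told apart there only if strand was used in counting, which is not given in the sources used here. Thra itself differed by 0.05 (adjusted p = 0.46) between night and day.

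Nr1d2, which encodes REV-ERBβ, lay at 42.5 to 70.3 CPM (median 53.9) by day and 51.6 to 90.1 CPM (median 71.6) by night, again with 10 of 17 night mice above every day mouse. Its log2 fold change was 0.42 (SE 0.06, adjusted p = 7.2e-09). It passed on NC ad lib (0.48, adjusted p = 0.00020) and HFS TRF (0.53, adjusted p = 8.0e-05), and on HFS ad lib it was 0.26 (adjusted p = 0.069). The latter passed with DESeq2 (0.27, adjusted p = 0.038) and with the filterByExpr count filter of edgeR (0.27, adjusted p = 0.044). The HFS TRF night mice had 86.0, 71.6, 69.5, 82.2 and 83.2 CPM, all above the 6 day mice at 50.7 to 62.5 CPM. On HFS ad lib the night mice ran from 60.2 to 79.9 CPM and the day mice from 53.4 to 70.3 CPM. The difference between feeding groups in this change did not pass its own test, at -0.22 for HFS ad lib against NC ad lib (95% interval -0.49 to 0.05, adjusted p = 0.64) and at 0.26 for HFS TRF against HFS ad lib (-0.01 to 0.54, adjusted p = 0.63).

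Rorb, which encodes an activator of the same elements that the REV-ERBs repress, lay at 4.5 to 21.0 CPM (median 6.5) by day and 8.4 to 24.1 CPM (median 17.4) by night. The sets overlapped, because some day mice reached the night level. This gave a log2 fold change of 0.99 (SE 0.16, adjusted p = 4.7e-07), with 1.04 on NC ad lib (adjusted p = 0.0042), 0.85 on HFS ad lib (adjusted p = 0.027) and 1.06 on HFS TRF (adjusted p = 0.0042).

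Rora, the other Ror gene, lay at 14.3 to 36.4 CPM (median 21.0) by day and 17.3 to 55.9 CPM (median 22.1) by night. The medians were close and 3 night mice were above every day mouse. Its log2 fold change was 0.25 (SE 0.13, adjusted p = 0.17, 95% interval -0.01 to 0.51). On HFS ad lib it was 0.54 (adjusted p = 0.12), where 1 night mouse reached 55.9 CPM against a median of 22.4 CPM.

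By feeding group, 5 members were called on NC ad lib (11.7% of all genes), 3 on HFS ad lib (10.4%) and 5 on HFS TRF (14.2%). Sets without overlap were found for Bmal1 on NC ad lib (5.85% of all genes in either direction) and on HFS ad lib (4.84%), and for Bmal1, Npas2 and Nr1d2 on HFS TRF (9.55%). On HFS ad lib the calls of Nr1d1 and Rorb were both lost in a fit of the compared groups alone (adjusted p = 0.053 and 0.13) and without HC zt3 replicate 1 of HFS ad lib (0.098 and 0.065), its HC zt3 replicate 2 (0.076 and 0.091) or its HC zt15 replicate 1 (0.13 and 0.081).

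**Figure D2:**
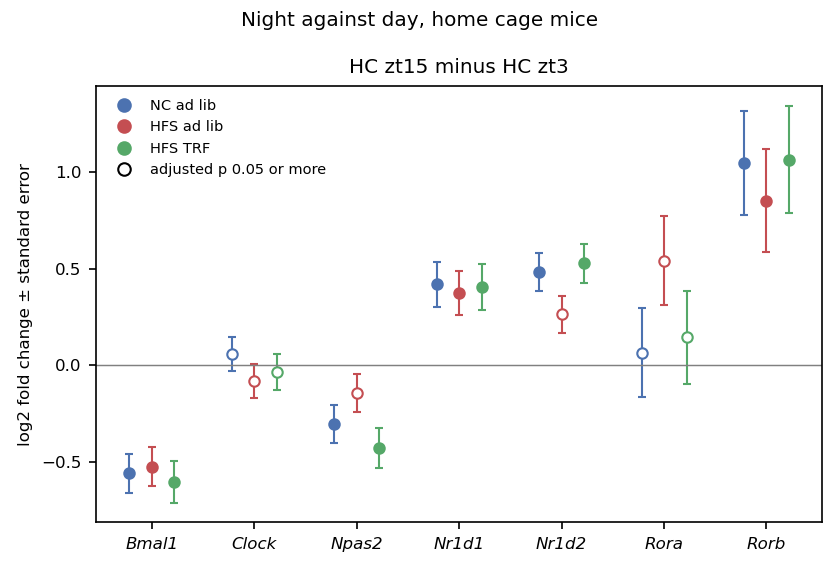
Log2 fold change of each gene (vertical axis, with SE bars) between HC zt15 and HC zt3, by feeding group (colours), with open symbols where the adjusted p was 0.05 or more. Bmal1 lay between -0.52 and -0.60 in the 3 feeding groups of home cage mice. The mean of the 3 groups is not drawn, and was -0.02 for Clock.

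Trained mice give the same pair of times in other animals, of the same 2 experiments, but also differ in time since training (12 h against 1 h). Hour, experiment and time since training cannot be told apart here. Between ORM+12 h and ORM+1 h, Bmal1 (-0.30, SE 0.06, adjusted p = 3.6e-05) was lower at the later time and Nr1d1 (0.36, SE 0.07, adjusted p = 8.5e-06) higher, as between the home cage groups, whereas Rorb went the other way (-0.62, SE 0.15, adjusted p = 0.00098). Nr1d2 (-0.07, adjusted p = 0.42), Npas2 (-0.05, adjusted p = 0.56), Clock (-0.09, adjusted p = 0.19) and Rora (-0.23, adjusted p = 0.22) did not pass. The count was 3 of 7 members, where 28.7% of all genes were called. Bmal1 ran from 21.3 to 39.0 CPM (median 30.9) in ORM+12 h mice and from 30.6 to 46.7 CPM (median 37.1) in ORM+1 h mice, so these sets overlapped, and 8 of 18 ORM+12 h mice were below every ORM+1 h mouse. Nr1d1 ran from 134.3 to 191.4 CPM (median 152.6) against 78.3 to 159.7 CPM (median 127.7). Thra also differed between these conditions, by 0.37 (adjusted p = 2.0e-10), and its part in the Nr1d1 value was not tested.

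Setting ORM+1 h against HC zt3 asks for the early response to training. Rorb and Nr1d2 were higher 1 h after training and Npas2 was lower, while Bmal1, Clock, Nr1d1 and Rora did not pass. These 3 of 7 calls, for the mean of the 3 feeding groups, stand beside 14.6% of all genes. Rorb was 2.08-fold higher, Nr1d2 1.16-fold higher and Npas2 1.12-fold lower. The HC zt3 mice are the same as in the comparison of night and day, so that the 2 sets of changes share their control values.

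Rorb lay at 12.4 to 25.1 CPM (median 17.8) in the 18 ORM+1 h mice, against 4.5 to 21.0 CPM (median 6.5) in HC zt3 mice. The log2 fold change came to 1.06 (SE 0.15, adjusted p = 2.5e-07). On NC ad lib it was 1.34 (SE 0.27, adjusted p = 0.00040), and all 6 trained mice (15.3 to 25.1 CPM) were above all 6 home cage mice (5.2 to 13.3 CPM), as in 3.19% of all genes. On HFS TRF it was 1.17 (SE 0.27, adjusted p = 0.0047). On HFS ad lib it was 0.66 (SE 0.27, adjusted p = 0.24, 95% interval 0.14 to 1.18). With mice left out singly, it passed there only without HFS ad lib HC zt3 replicate 5 (1.04, adjusted p = 0.017). The difference between feeding groups in this change did not pass either (-0.68 for HFS ad lib against NC ad lib, 95% interval -1.41 to 0.05, adjusted p = 0.84).

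Nr1d2 lay at 54.7 to 80.8 CPM (median 64.1) in ORM+1 h mice against 42.5 to 70.3 CPM (median 53.9) in HC zt3 mice, and 3 of 18 trained mice exceeded all home cage mice. The log2 fold change was 0.22 (SE 0.06, adjusted p = 0.0031). Of the feeding groups it passed on NC ad lib (0.37, SE 0.10, adjusted p = 0.011), where trained mice had 59.8 to 77.1 CPM and home cage mice 42.5 to 63.9 CPM. That call was lost without NC ad lib HC zt3 replicate 1 (0.31, adjusted p = 0.051) or NC ad lib ORM+1 h replicate 6 (0.30, adjusted p = 0.066).

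Npas2 lay at 18.2 to 24.9 CPM (median 22.3) in ORM+1 h mice against 18.3 to 32.5 CPM (median 25.0), and 1 of 18 trained mice was below every home cage mouse. Its log2 fold change of -0.17 (SE 0.06, adjusted p = 0.031) was the weakest of the 3 calls, and was lost without any of 9 mice left out singly (adjusted p up to 0.071). On NC ad lib it was -0.30 (adjusted p = 0.051).

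Bmal1 was at -0.06 (SE 0.06, adjusted p = 0.64, 95% interval -0.17 to 0.05), so a change as large as that between night and day lay outside the interval. Clock was at 0.13 (SE 0.05, adjusted p = 0.077) and Rora at 0.08 (adjusted p = 0.87). Nr1d1 was at -0.08 (adjusted p = 0.56), while Thra fell by 0.15 (adjusted p = 0.012) on the log2 scale. By feeding group, 2 members were called on NC ad lib (5.73% of all genes) and 1 on HFS TRF (2.87%). On HFS ad lib 0 were called by edgeR (1.23% of all genes) and 0 by DESeq2, and 2 had an unadjusted p under 0.05.

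Setting ORM+12 h against HC zt15 asks for the late response. Bmal1 was 1.15-fold higher 12 h after training, whereas Nr1d2 was 1.21-fold lower and Rorb 1.46-fold lower. These were 3 of 7 members for the mean of the feeding groups, where 6.03% of all genes were called. The HC zt15 mice also entered the home cage difference between night and day, where Bmal1 was at -0.56, Nr1d2 at 0.42 and Rorb at 0.99.

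Bmal1 lay at 21.3 to 39.0 CPM (median 30.9) in the 18 ORM+12 h mice against 21.9 to 33.0 CPM (median 26.4) in the 17 HC zt15 mice, where 7 trained mice exceeded all home cage mice and 1 was below them all. Its log2 fold change was 0.21 (SE 0.06, adjusted p = 0.026). By feeding group it was 0.36 on NC ad lib (adjusted p = 0.10), 0.15 on HFS ad lib and 0.11 on HFS TRF. On NC ad lib the trained mice had 32.4 to 39.0 CPM and the home cage mice 23.0 to 33.0 CPM. The call was lost without NC ad lib HC zt15 replicate 2 (adjusted p = 0.055) or HFS ad lib ORM+12 h replicate 2 (adjusted p = 0.056), and in a fit of the compared groups alone (adjusted p = 0.083).

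Nr1d2 lay at 50.5 to 74.3 CPM (median 60.9) in ORM+12 h mice against 51.6 to 90.1 CPM (median 71.6) in HC zt15 mice. On the log2 scale the change was -0.27 (SE 0.06, adjusted p = 0.0033), the smallest adjusted p of the 7 members in this comparison. On HFS TRF it was -0.40 (SE 0.10, adjusted p = 0.024), and all 6 trained mice (50.5 to 66.1 CPM) were below all 5 home cage mice (69.5 to 86.0 CPM), as in 0.756% of all genes. That call was lost without HFS TRF HC zt15 replicate 1 (adjusted p = 0.10) or replicate 4 (adjusted p = 0.081). On NC ad lib it was -0.19 (adjusted p = 0.30) and on HFS ad lib -0.22 (adjusted p = 0.24).

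Rorb lay at 6.9 to 16.9 CPM (median 11.3) in ORM+12 h mice against 8.4 to 24.1 CPM (median 17.4), and its log2 fold change was -0.54 (SE 0.16, adjusted p = 0.025). Rora was at -0.40 (SE 0.13, adjusted p = 0.062). Clock (0.06), Npas2 (0.07) and Nr1d1 (-0.11, adjusted p = 0.36) did not pass, and Thra rose by 0.17 (adjusted p = 0.018). By feeding group, 1 member was called on HFS TRF (2.46% of all genes). With edgeR 0 were called on NC ad lib (0.209%) and 0 on HFS ad lib (0.179%, with 3 at an unadjusted p under 0.05), and DESeq2 called 1 on NC ad lib, Bmal1 (0.36, adjusted p = 0.038).

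**Figure D3:**
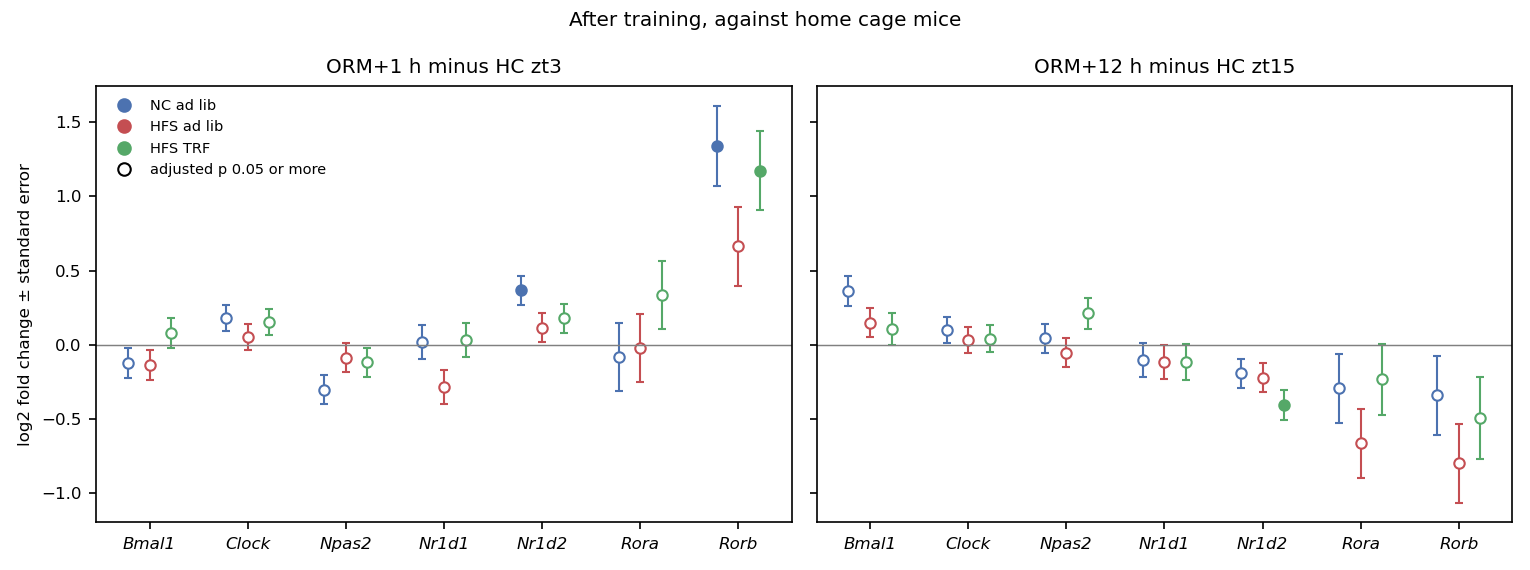
Log2 fold change of each gene (vertical axis, with SE bars) 1 h after training against HC zt3 and 12 h after training against HC zt15, by feeding group (colours), with open symbols where the adjusted p was 0.05 or more. Rorb lay at 0.66 to 1.34 at 1 h. The means of the 3 groups are not drawn. For Rorb the mean was -0.54 at 12 h, and for Nr1d2 it was 0.22 at 1 h and -0.27 at 12 h.

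Between feeding groups none of the members was called. Across 11 comparisons of diets, 77 tests in all, 0 passed by edgeR and 10 had an unadjusted p under 0.05, with log2 differences from -0.37 to 0.39. These tests are not separate, because the means of the 4 conditions hold the same mice as the single conditions. The share of all genes with an unadjusted p under 0.05 is not given. The lowest adjusted p was that of Nr1d1, which was 0.16 lower on the log2 scale on HFS ad lib than on NC ad lib as the mean of the 4 conditions (-0.16, SE 0.06, adjusted p = 0.10). In ORM+1 h mice, Nr1d1 had 78.3 to 134.9 CPM (median 91.1) on HFS ad lib, 99.7 to 159.7 CPM (median 132.8) on NC ad lib and 115.5 to 147.4 CPM (median 126.9) on HFS TRF, so the groups overlapped. Bmal1 differed by -0.15 (SE 0.05, adjusted p = 0.14) between HFS TRF and NC ad lib. Of all genes, 2.61% were called for HFS ad lib against NC ad lib, 0.269% for HFS TRF against NC ad lib and 0.0% for HFS TRF against HFS ad lib, as means of the 4 conditions. Within a condition HFS ad lib against NC ad lib gave 2.27% at ORM+12 h, 0.063% at HC zt15 and 0.0% at HC zt3 and ORM+1 h, and HFS TRF against HFS ad lib gave 0.00664% at ORM+12 h and 0.0% otherwise. Differences between feeding groups in a change with time or training gave 42 tests, of which 0 passed and 0 had an unadjusted p under 0.05. Of all genes 0.106% passed for the change at 12 h on HFS ad lib against NC ad lib and 0.0% in the other 5 such comparisons. Clock, at 0.09 for HFS ad lib against NC ad lib over the 4 conditions, had a 95% interval of 0.01 to 0.18 (adjusted p = 0.26).

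The rest of the clock was read from lists of genes known to belong to it. Between HC zt3 and HC zt15, 4 of 5 period and cryptochrome genes, the repressors of the activator pair, were higher at night and 0 lower, where 12.7% of all genes were higher (median log2 fold change 0.35, beside -0.02 for all genes), namely Cry1 (0.53), Per1 (0.50), Per3 (0.35) and Cry2 (0.11), and Per2 was at 0.20 (adjusted p = 0.051). Of 7 output transcription factors 6 were higher (median 0.34), among them Ciart (0.87), Dbp (0.83), Hlf (0.44) and Nfil3 (0.34), with Bhlhe41 (0.26) and Tef (0.14). Bmal2, the relative of Bmal1, was at 0.01. Among partners, kinases and ligases of the clock proteins, Hdac4 (0.36) and Rack1 (0.15) were higher, and Ncor1 (-0.14) and Btrc (-0.12) were lower. Of all genes, 12.7% were higher and 16.9% lower, and these calls are not read as particular to that list. Bmal1 and Npas2 were thus lower at night while most of the period, cryptochrome and output genes were higher, together with Nr1d1 and Nr1d2.

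**Figure D4:**
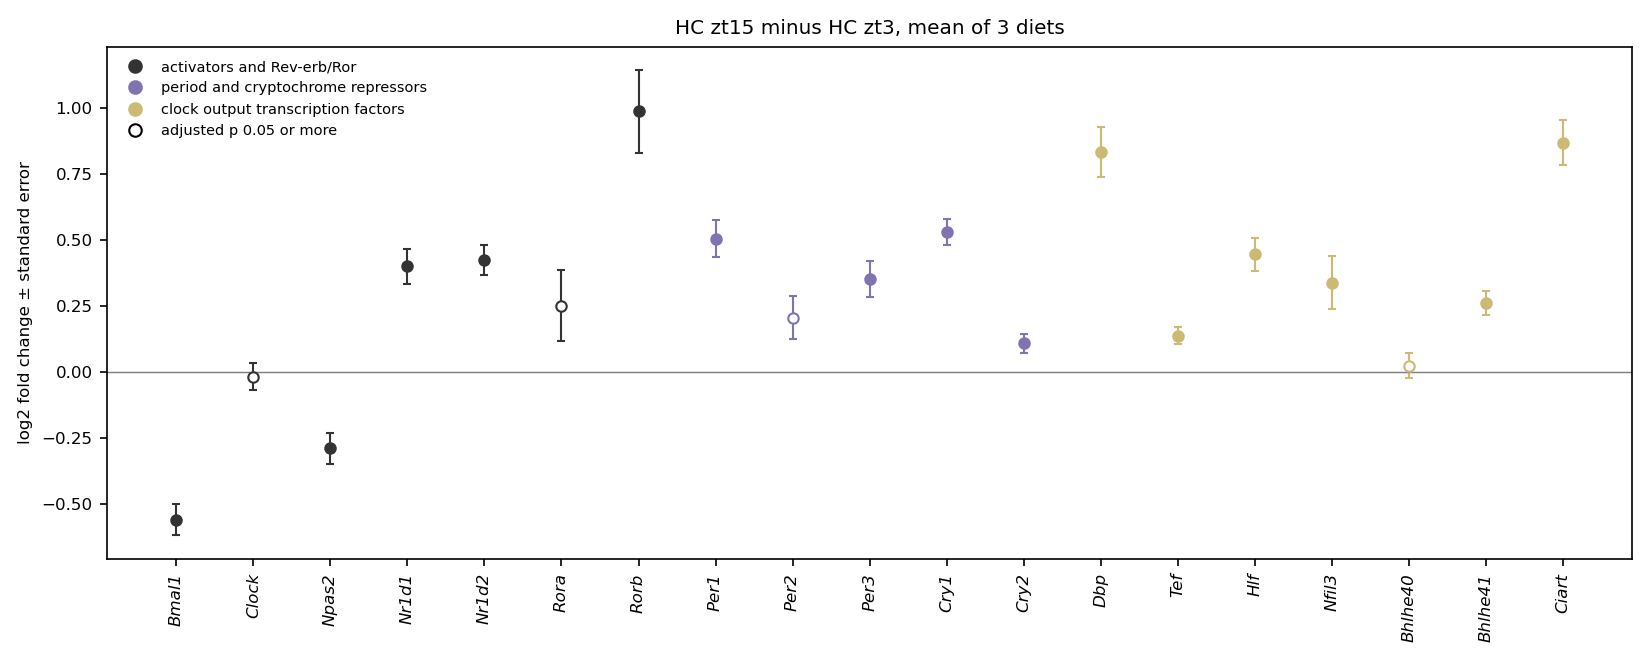
Log2 fold change between HC zt15 and HC zt3 as the mean of the 3 feeding groups (vertical axis, with SE bars) for the 7 members, the period and cryptochrome genes and the output transcription factors, coloured by list, with open symbols where the adjusted p was 0.05 or more. Bmal1 (-0.56) and Npas2 (-0.29) lay below 0, and Rorb (0.99), Ciart (0.87) and Dbp (0.83) were highest.

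At 1 h after training 4 of the 5 period and cryptochrome genes were higher (Per1 1.03, Per2 0.59, Per3 0.34, Cry1 0.27), as were 4 of the 7 output genes (Nfil3 1.24, Bhlhe40 0.28, Ciart 0.28, Hlf 0.24), beside the 0.22 of Nr1d2, and 8.04% of all genes were higher. At 12 h, 1 period or cryptochrome gene was lower (Cry1 -0.17) and 3 output genes were lower (Ciart -0.52, Dbp -0.34, Hlf -0.22), beside the -0.27 of Nr1d2, and 2.44% of all genes were lower.

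Levels of the Ror genes moved with markers of other cells. All 7 of 7 astrocyte markers were higher at HC zt15 than at HC zt3 (median log2 fold change 0.99), where 12.7% of all genes were higher. All 7 were also higher at ORM+1 h than at HC zt3 (0.92, 8.04% of all genes). At ORM+12 h 2 of the 7 were lower than at HC zt15 (median -0.41, 2.44% of all genes). The summed level of the 7 markers ran from 687 to 2236 CPM (median 916) in HC zt3 mice and 1292 to 3245 CPM (median 2003) in ORM+1 h mice. It was 1037 to 2900 CPM (median 2220) in HC zt15 mice and 1045 to 2736 CPM (median 1710) in ORM+12 h mice. The median was lowest at HC zt3, as that of Rorb was. Within groups, the log2 level of Rorb and the mean of the astrocyte markers, each less its group mean, had r = 0.784 and rho = 0.718 over 71 mice (permutation test, both p = 1e-05, the smallest that 100000 permutations can give, adjusted p = 0.000257). Without the 2 mice farthest from the median r was 0.744, and it was 0.84 in the 36 zt3 mice and 0.694 in the 35 zt15 mice. None of the 7 astrocyte markers was at 0 in any mouse, and their part in the Rorb changes was not tested. Nr1d1 also went with the astrocyte markers (r = 0.625, rho = 0.615, without 2 mice 0.598, in zt3 mice 0.718 and in zt15 mice 0.47).

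The HC zt3 mice of numbers 5 and 6 stood apart in Rorb and Nr1d1 in all 3 feeding groups. Their astrocyte scores, on the log2 scale, were above those of all other HC zt3 mice of the group on HFS ad lib and HFS TRF. The scores were 0.4996 to 0.5683 against -1.2376 to -1.1283 on HFS ad lib, and 0.0155 to 0.0809 against -1.367 to -0.836 on HFS TRF. On NC ad lib they overlapped (-0.813 to -0.402 against -0.997 to -0.714). The part of astrocyte content in this split was not tested. Rorb was at 8.6 to 21.0 CPM in these 6 mice and at 4.5 to 8.1 CPM in the other 12, and Nr1d1 at 135.4 to 159.9 against 95.2 to 132.1 CPM. Without them, a choice made after these values were seen and which by itself widens the difference, the log2 fold change of Rorb was 1.50 between night and day, 1.57 at 1 h after training and 1.36 at 1 h on HFS ad lib. Nr1d1 at 1 h then changed sign, from -0.08 to 0.027, and passed in neither case.

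Rora went with thalamic markers, from a region next to the hippocampus where Rora and Rorb are known to be high. Within groups r was 0.911 and rho 0.884 over 71 mice (permutation test, both p = 1e-05, adjusted p = 0.000257), with 0.895 without the 2 farthest mice, 0.882 in zt3 mice and 0.945 in zt15 mice. The summed level of the 7 thalamic genes ran from 79.8 to 344.8 CPM in HC zt3 mice, 78.0 to 496.1 in ORM+1 h mice, 84.8 to 425.3 in HC zt15 mice and 74.6 to 234.9 in ORM+12 h mice, with no gene at 0 in any mouse. At ORM+12 h 1 of the 7 was lower than at HC zt15 (median log2 fold change -0.74), where 2.44% of all genes were lower. In the 11 mice whose thalamic score was at least 1 log2 unit above the mean of all mice, Rora was at 25.1 to 55.9 CPM (median 34.2), against 14.3 to 31.5 CPM (median 20.1) in the other 60. The 11 mice were spread over 6 groups and none was an ORM+12 h mouse. Of HFS ad lib mice, 2 at HC zt15 and 0 at HC zt3 were among the 11. Leaving the 11 mice out was chosen after the data were seen, and by itself takes away mice of high Rora. Without them the HFS ad lib difference of Rora between night and day went from 0.54 to -0.030, and that of the mean at 12 h from -0.40 to -0.13. The part of thalamic tissue in these differences was not tested. These 3 relations had an adjusted p under 0.05 for both r and rho among 77 computed, which paired 7 genes with 11 marker lists. Rora with the endothelial genes passed by rho alone (rho = 0.375, permutation test, adjusted p = 0.0439, and r = 0.283, adjusted p = 0.202).

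**Figure D5:**
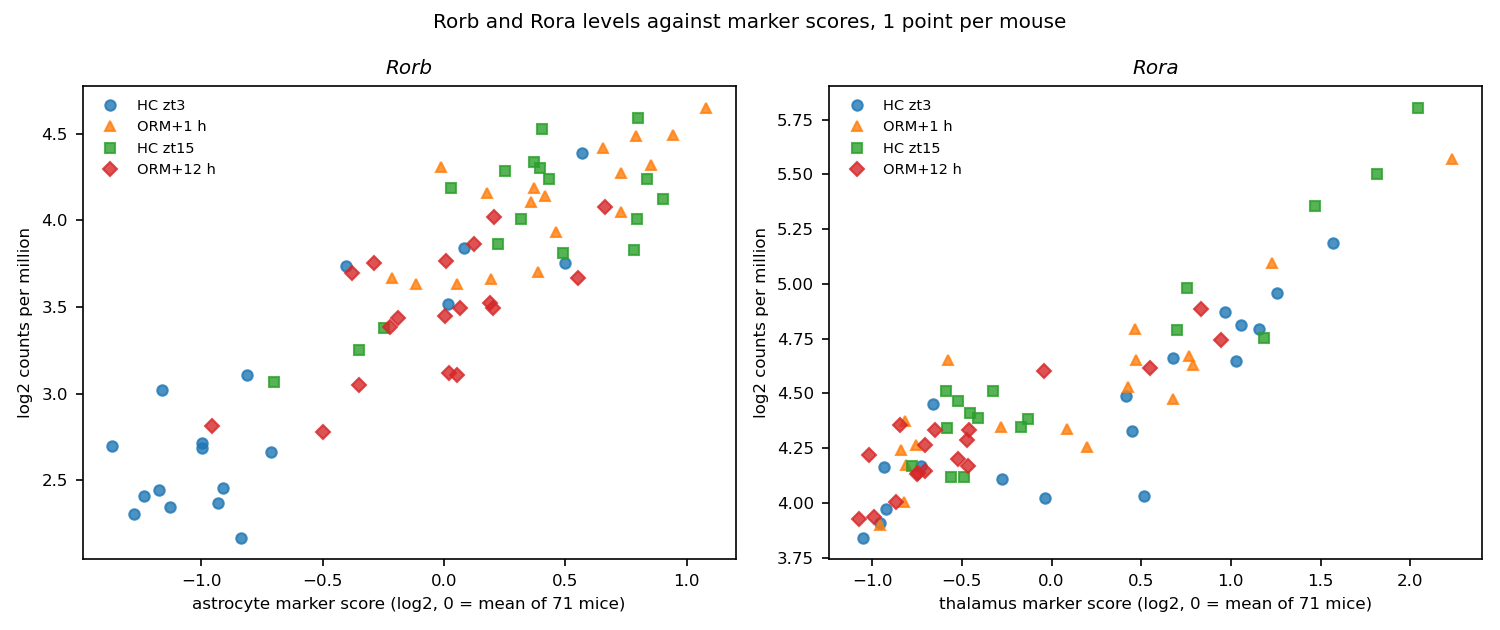
Left, log2 CPM of Rorb against the astrocyte marker score, and right, log2 CPM of Rora against the thalamus marker score (horizontal axes, log2 units, 0 at the mean of the 71 mice), 1 point per mouse with the symbol giving the condition. Within groups each gene rose with its score, with r of 0.784 for Rorb and 0.911 for Rora. The points are not centred on their groups, and no r against the scores was computed across conditions.

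Within groups, the members had modest correlations with each other over the 71 mice, which share library and depth between the 2 genes of a pair. Of 21 pairs, Nr1d1 with Rorb had the highest r (0.47), followed by Rora with Rorb (0.42), Bmal1 with Npas2 (0.39) and Clock with Nr1d2 (0.38). The lowest were Npas2 with Nr1d2 (-0.45) and Clock with Nr1d1 (-0.40).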

How the data were processed

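The authors trimmed the reads with Trim Galore 0.6.7 and cutadapt 3.4, aligned them to GRCm39 with HISAT2 2.2.0 and counted them per gene with featureCounts (Subread 2.0.3), and deposited whole-number counts per mouse. The library kit keeps strand, whereas the strand setting of the counting and the annotation release are not given in the sources used here. mm9 is also listed in the submitters' processing notes, without a role.

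Genes with at least 10 counts in all were kept (30141 of 57010). A model with the 12 groups as its terms was fitted to the counts of all 71 mice with edgeR 4.0.16 (R 4.3.3, limma 3.58.1), with TMM scaling and the quasi-likelihood test, and p-values were adjusted over all tested genes by Benjamini-Hochberg in each of 30 comparisons. The threshold was an adjusted p of 0.05. CPM used TMM-scaled totals, and log2 CPM a prior count of 2. Marker scores are means of log2 CPM over a list, centred on the 71 mice. Gene positions and exon lengths are those of GENCODE on GRCm39, in which 56310 of the 57010 genes were found. The fit was tested on simulated data. DESeq2 1.42.0, DESeq2 size factors, other count filters, a replicate block, the compared groups alone and leaving out each mouse were alternatives. Exclusions of 2 sets of mice were added after the data were seen.

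The genes named are the 7 members, other clock genes from fixed lists where called between HC zt15 and HC zt3, and the 3 genes most like each member. Per2, Bmal2 and Bhlhe40, not called there, were named after their values were seen. The members and lists were chosen with earlier results of these data known. Python 3.11.15, numpy 2.4.6, pandas 2.3.3, scipy 1.17.1 and matplotlib 3.10.9 were used. Results for some genes of these lists are not reported here.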

Additional observations from a re-analysis of the deposited data

Results flagged for a closer look

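In 84 groups of 5 or 6 values (7 genes in 12 groups), the highest or lowest mouse stood far from the others by Dixon's criterion in 3, where chance gives about 1 in 20. Clock was at 48.5 CPM in HFS ad lib HC zt15 replicate 1, against 61.2 CPM in the next mouse of that group. Nr1d2 was at 62.5 CPM in HFS TRF HC zt3 replicate 5, against 54.4 CPM in the next. Rora was at 26.8 CPM in NC ad lib ORM+12 h replicate 6, against 20.5 CPM in the next.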

How the results depend on the processing

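Of 210 pairs of a member and a comparison, 31 were called, and none of these changed sign under an alternative, while 56 of all pairs did. DESeq2 called 1 member 12 h after training on NC ad lib (0 with edgeR) and also Rora at 12 h (-0.40, adjusted p = 0.043) and Npas2 at 1 h on NC ad lib (-0.32, adjusted p = 0.015). Fitting the compared groups alone left 1 member called between night and day on HFS ad lib (3 in the fit of all groups) and lost Npas2 on NC ad lib (adjusted p = 0.094), whereas at 1 h Clock for the mean (0.14, adjusted p = 0.039) and Npas2 on NC ad lib (-0.32, adjusted p = 0.037) passed in it. Nr1d2 between night and day on HFS ad lib passed with DESeq2 (0.27, adjusted p = 0.038) and with another count filter (0.27, adjusted p = 0.044). For these fits, and for those below with 1 mouse left out, the share of all genes called is not given. Changes in the counts of members called therefore cannot be read as particular to the members. Per kilobase of the longest transcript, mean levels were 7.24 for Bmal1, 6.14 for Clock, 5.02 for Npas2 and 11.2 for Nr1d2.

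With 1 mouse left out at a time, the members called between night and day were 5 for the mean of the feeding groups, 4 to 5 on NC ad lib, 1 to 4 on HFS ad lib and 4 to 5 on HFS TRF. At 1 h after training they were 2 to 4 for the mean, 1 to 3 on NC ad lib, 0 to 1 on HFS ad lib and 1 on HFS TRF. At 12 h they were 2 to 4, 0, 0 to 1 and 0 to 1 in the same order. For HFS ad lib against NC ad lib over the 4 conditions they were 0 to 1, the call being Nr1d1 (-0.19) without HFS ad lib ORM+1 h replicate 1 or HFS ad lib HC zt15 replicate 1. Rorb between night and day on HFS ad lib was also lost without HFS ad lib HC zt3 replicate 3 (adjusted p = 0.088), HC zt3 replicate 4 (0.085) or HC zt15 replicate 3 (0.074), and Nr1d1 on HFS TRF without HFS TRF HC zt15 replicate 1 (0.054). Npas2 on NC ad lib was lost without NC ad lib HC zt3 replicate 1 or 2 or HC zt15 replicate 1, 2, 3 or 4 (0.053 to 0.13). At 1 h Npas2 was lost without NC ad lib HC zt3 replicate 1, NC ad lib ORM+1 h replicate 2, HFS ad lib HC zt3 replicate 1, 2 or 3, HFS ad lib ORM+1 h replicate 5 or 6, or HFS TRF ORM+1 h replicate 5 or 6, and with no filter on counts (0.051).

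The exclusion of 2 sets of mice was chosen after the data were seen. Without the HC zt3 mice of numbers 5 and 6, 1 member was called at 1 h on HFS ad lib and Nr1d1 at 1 h was 0.027 for the mean. Without the 11 mice of high thalamic score, 3 members were called between night and day on NC ad lib and 1 on HFS ad lib, 1 at 12 h for the mean and 0 on HFS TRF, with Rora on HFS ad lib at -0.030 and Clock for the mean at 0.011 between night and day. Fewer mice entered these fits, and the cause of the lost calls was not tested. The share of all genes called in these fits is not given, so the counts cannot be read as particular to the members.

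Replicate numbers were shared between groups, and the labels do not say that they pair the mice. Same-numbered mice of 2 groups correlated from -0.69 to 0.72 (median 0.006, 140 pairs) in their deviations from the group means. Between NC ad lib HC zt3 and HFS TRF HC zt3, 5 of 6 such pairs were over 0.1 (median 0.37). In 0 of 24 pairs of groups were all of them over 0.1. With the replicate number as a block, 5 members were called between night and day for the mean of the feeding groups and no member's call changed in any comparison. The block is the same for all 12 groups, so it cannot take up a difference between numbers that is found in 1 condition. No mouse of a group differed from another by as little as sampling noise. Depth did not limit the members, whose lowest count was 222.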

Other observations

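The genes whose level was most like that of each member over the 71 mice, by Pearson's r of log2 CPM among protein-coding genes with a mean of at least 1 CPM, are given as a description. Conditions, library and depth are shared by the points. Bmal1 went with Plk2 (0.81), Ptk2 (0.80) and Mical2 (0.80), Clock with Taok1 (0.82), Pik3ca (0.77) and Cnot6l (0.76), and Npas2 with Carmil3 (0.67), Nos1 (0.67) and Ankrd63 (0.64). Nr1d1 went with Sirt2 (0.81), Eef2k (0.80) and Dbp (0.80), the last a clock output gene, and Nr1d2 with Rab21 (0.78), Srsf10 (0.75) and Luc7l2 (0.75). Rora went with Amotl1 (0.87), Prkcd (0.86) and Tcf7l2 (0.86), of which the last 2 are in the thalamus list. Rorb went with Ddah1 (0.94), Fam163a (0.93) and Id4 (0.92).

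Of 7 neuronal genes 0 were higher and 1 was lower at HC zt15 than at HC zt3 (median -0.10), and of 7 thalamic genes 0 were called. Of all genes, 12.7% were higher and 16.9% lower there. Early activity-induced genes rose in 9 of 9 cases 1 h after training (median 1.79), where 8.04% of all genes were higher.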
